A study of Mus musculus with 2 samples.

Results

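The Sfmbt2 intron repeat microRNA cluster was examined in small RNA of the embryonic mouse midbrain. Its members were defined by position, as the counted genes that GENCODE M21 annotates as microRNA genes within chr2:10465287-10518279 (mm10). The choice was made with earlier results of these data known. The interval holds 119 annotated microRNA genes, of which 107 are among the 1973 genes counted in these libraries. The other 12, of which 9 are Mir669a copies and 3 are Mir466 copies, are not among the counted genes and were not analysed here.

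The 2 libraries form 1 group and are biological replicates 1 and 2 of midbrain tissue from B6NCrl mouse embryos at embryonic day 10.5. They were made from RNA shorter than 30 nt out of pools of 69 and 51 embryos, with males and females mixed in each pool. There is no treatment, mutant or second tissue, so the data give levels and their spread between 2 pools, and no contrast between conditions. In bulk tissue, fewer cells that make a microRNA and less of it per cell cannot be told apart.

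Sfmbt2 encodes a Polycomb group protein and is an imprinted gene, known to be expressed from the paternal allele in the early embryo and in extraembryonic tissue. One of its introns carries a tandem array of microRNA genes that is known from mouse and rat and has been studied mainly in the placenta. The array is built from repeated copies of a few hairpin types, named Mir297, Mir466, Mir467 and Mir669. A microRNA is cut from such a hairpin and pairs with target mRNAs through its seed, bases 2 to 8 of the mature strand. Mature strands with equal seeds are therefore usually counted as 1 family.

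The host gene, Sfmbt2 (ENSMUSG00000061186.15, chr2:10370510-10595253, plus strand), has 2 annotated coding transcripts with the same 62472-base intron at chr2:10461473-10523944. All 119 microRNA genes lie inside this intron and on the plus strand, as the host does. The annotated genes of the 107 members are 73 to 127 bases long, and adjacent genes in the interval lie 70 to 2575 bases apart, with a median of 206. The array has a visible period. The starts of adjacent Mir467a genes are a median of 2462 bases apart, with a range of 2413 to 4880.

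The libraries held 7810040 and 9423767 reads, of which 3297835 and 3682410 were assigned to a counted gene. A separate row, which names no gene, holds multiply mapped reads, 30.9% and 29.5% of all reads. Of microRNAs known from neural tissue, Mir92b had 21245 and 25352 CPM (reads per 1000000 gene-assigned reads). Mir9-3 had 137 and 66.8 CPM, and Mir9-2 had 0.910 and 1.09 CPM. Mir124a-1, Mir124a-2 and Mir124a-3 had 2.12, 17.0 and 4.85 CPM in replicate 1 and 0.543, 9.78 and 9.23 CPM in replicate 2. Of 20-base precursor stretches, 100% in Mir92b, 81.7% in Mir9-3 and 47.2% in Mir9-2 occur at no other annotated microRNA gene. For Mir124a-1, Mir124a-2 and Mir124a-3 this was 62.1%, 66.7% and 51.0%. How many multiply mapped reads come from the Mir9 and Mir124a copies was not tested, so their levels are uncertain.

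The members share much of their sequence with one another and with relatives elsewhere in the genome. By symbol, 0 of the 107 members matched the RefSeq microRNA table. Of the 10 counted genes with the same name stems outside the interval, 8 have a mature sequence there (GRCm38.p6). Each of the 4 below differs by 1 base from a precursor stretch of at least 1 of the 6 members with the most reads. They are shown for this reason, and the other 4 have at least 3 mismatches to each of these 6 members. The seed is in capitals, and sequences run 5′ to 3′.

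Mir467h: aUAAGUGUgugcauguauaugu
Mir467g: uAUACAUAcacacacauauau
Mir467f: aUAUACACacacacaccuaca
Mir669n: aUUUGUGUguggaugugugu

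These mature strands lie at chr9:115381898-115381919 (plus strand, Mir467h), chr5:34732872-34732892 (minus, Mir467g), chr11:69635419-69635439 (minus, Mir467f) and chr3:115979905-115979924 (plus, Mir669n). Their seeds all differ. Mir467h came within 1 mismatch of the Mir467c and Mir467e precursors, and Mir467g of those of Mir669l and Mir467e. Mir467f came within 1 mismatch of Mir467d and of 11 other members, among them the 10 counted Mir467a copies, and Mir669n within 1 mismatch of Mir669c alone. The seed letters of Mir467g, AUACAUA, occurred in 61.7% of the member precursors and in 3.36% of the other counted genes with a sequence. The seed letters of Mir467h, UAAGUGU, occurred in 0.935% of the members and in 0.672% of the others. A match of letters in a precursor does not place them in its mature strand.

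None of the 10 related genes outside the interval had a read in either library. The 10 are Mir297-1, Mir466f-4, Mir466i, Mir466j, Mir466k, Mir466q, Mir467f, Mir467g, Mir467h and Mir669n. Within the precursors of these genes, 35.1 to 100% of 20-base stretches were found at no other annotated microRNA gene, with a median of 70.0%. A count of 0 allows up to 3 reads, or 0.910 CPM in replicate 1 and 0.815 CPM in replicate 2, for reads that map to 1 place. Floors and intervals given here take in counting error alone, since no molecular identifiers mark which reads are copies of 1 molecule.

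The cluster as a whole was a small part of the midbrain profile. Its 107 members make up 5.42% of the counted genes. They held 21716 reads in replicate 1, or 0.658% of the gene-assigned reads (95% Wilson interval 0.650 to 0.667%). In replicate 2 they held 28970 reads, or 0.787% (0.778 to 0.796%). The mean share was 0.723% ± 0.0907 (SD, n = 2). Replicate 2 was the higher, by a ratio of 1.20 (95% counting interval 1.18 to 1.22). The separate row of multiply mapped reads is far larger than the cluster, with 111 such reads per cluster read in replicate 1 and 95.8 in replicate 2. How many of them come from the cluster was not tested.

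All reads of the members stood in 1 of the strand columns. The second count column held 100% of the members' reads in both libraries, and the third column held 0. Over the counted genes outside the cluster the second column held 97.4% and 97.3%. The columns have no names, and the second was read as the strand of the gene because it holds most reads of the whole table, so the strand of the members' reads rests on that reading and is not an independent result.

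The reads were concentrated in few genes. Of the 107 members 12 (11.2%) had at least 10 reads in each library, against 20.2% of all counted genes. At least 1 read in both was counted for 24 members (22.4%), against 31.5% of all genes. No read in either library was counted for 71 members (66.4%), and for 61.0% of all genes. The share of genes at 0 in the cluster was near that of the whole table. The 3 highest members, Mir467c, Mir467d and Mir467e, held 79.4% and 81.9% of the cluster's reads, and the 6 highest 98.0% and 98.3%.

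Sorted by name, the Mir467 group carried most of the reads. Its 14 counted genes held 79.5% of the cluster's reads in replicate 1 and 82.0% in replicate 2. The 20 Mir669 genes held 19.4% and 17.0%, the 20 Mir466 genes 0.857% and 0.804%, and the 5 Mir297 genes 0.0875% and 0.166%. The 48 members that have only a Gm name held 0.0921% and 0.0414%. At least 10 reads in both libraries were reached by 5 Mir467 genes, 5 Mir669 genes, 1 Mir466 gene and 1 Mir297 gene, and by no Gm gene. The largest count of a Gm gene in 1 library was 9 reads.

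**Figure D1:**
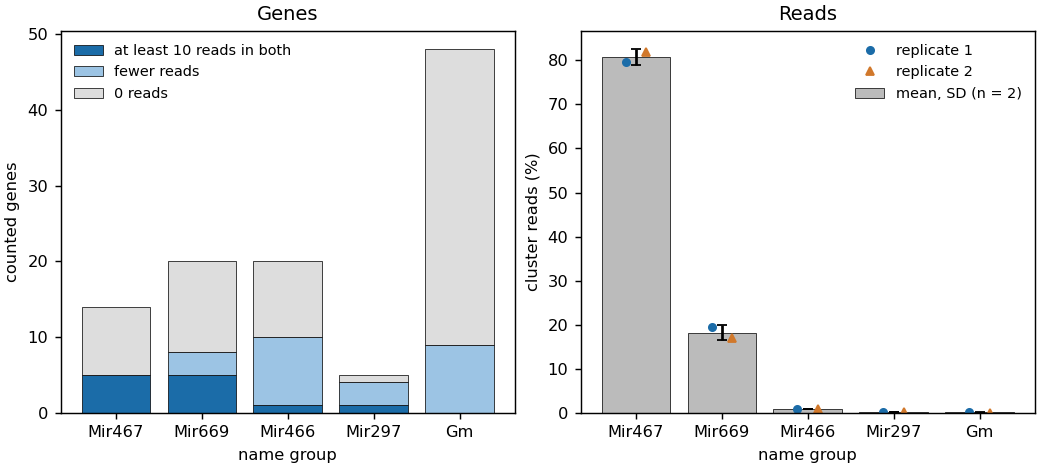
Left, number of counted genes in each name group, split by reads (at least 10 in both libraries, fewer, or 0). Right, percent of the cluster's reads in each group, with bars for the mean, error bars for the SD (n = 2) and points for the replicates. The 14 Mir467 genes hold 79.5% and 82.0% of the reads, while the 48 Gm genes hold 0.0921% and 0.0414%.

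Members are ranked here by assigned reads and not by abundance, since reads that map to several places are left out. Mir467c (ENSMUSG00000077049.2, chr2:10473931-10474027) had the most, with 7648 reads in replicate 1 and 11197 in replicate 2. These are 2319 and 3041 CPM (mean 2680 ± 510, SD, n = 2), which placed it 74th and 58th among the 1973 counted genes. Its ratio of replicate 2 over replicate 1, scaled by TMM (trimmed mean of M-values, a correction of library size), was 1.32 (95% counting interval 1.28 to 1.35).

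Mir467d (ENSMUSG00000077021.2, chr2:10507630-10507714) followed with 5330 and 7296 reads, which are 1616 and 1981 CPM (1799 ± 258). Mir467e (ENSMUSG00000076948.2, chr2:10505721-10505807) had 4274 and 5220 reads, which are 1296 and 1418 CPM (1357 ± 85.9). Their ratios were 1.23 (1.19 to 1.27) and 1.10 (1.05 to 1.14). The 3 genes kept their order in both libraries and their values did not overlap. They lie on both sides of the array, since Mir467c is near its start and Mir467d and Mir467e are near its end.

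The Mir669 genes with the most assigned reads followed. Mir669o (ENSMUSG00000077086.1, chr2:10514300-10514395) had 2064 and 2243 reads, or 626 and 609 CPM (617 ± 11.8). Mir669l (ENSMUSG00000076959.1, chr2:10468971-10469068) had 1647 and 2115 reads, or 499 and 574 CPM (537 ± 53.0). Mir669o was the higher in both libraries. Its ratio of 0.976 (0.919 to 1.04) lay within counting error of 1, and that of Mir669l was 1.15 (1.08 to 1.23).

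A second tier of Mir669 and Mir466 genes lay near or below 100 CPM. Mir669c (ENSMUSG00000076118.1, chr2:10509296-10509404) had 315 and 407 reads (95.5 and 111 CPM). Mir466n (ENSMUSG00000077991.1, chr2:10513741-10513834), the one Mir466 gene of this level, had 162 and 210 reads (49.1 and 57.0 CPM). Mir669e (ENSMUSG00000080653.1, chr2:10467495-10467613) had 143 and 129 reads (43.4 and 35.0 CPM). The ratios of these genes were 1.16 (1.00 to 1.35), 1.16 (0.944 to 1.44) and 0.811 (0.634 to 1.04). Each of the 8 members from Mir467c to Mir669e had values that did not overlap with those of the next in order. The order was taken from these same 2 libraries. In replicate 1 Mir466n and Mir669e were close, with 162 and 143 reads. Each read is 1 short RNA, so counts were not divided by gene length. Divided by the annotated length, the 8 genes kept the same order.

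The last 4 members with at least 10 reads in both libraries had 10 to 40 reads per library. Mir669h (chr2:10518155-10518279), the last gene of the array, had 37 and 25 reads, and Mir297a-2 (chr2:10472254-10472343) had 13 and 40. Mir467b (chr2:10481248-10481320) had 10 and 28 reads, and Mir467a-1 (chr2:10476346-10476418) had 11 and 12. The order of these 4 genes was not the same in the replicates. A ratio of 2.70 (1.45 to 5.63) was found for Mir297a-2 and of 2.45 (1.19 to 5.81) for Mir467b. The ratio was 0.612 (0.350 to 1.04) for Mir669h and 0.981 (0.396 to 2.45) for Mir467a-1.

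**Figure D2:**
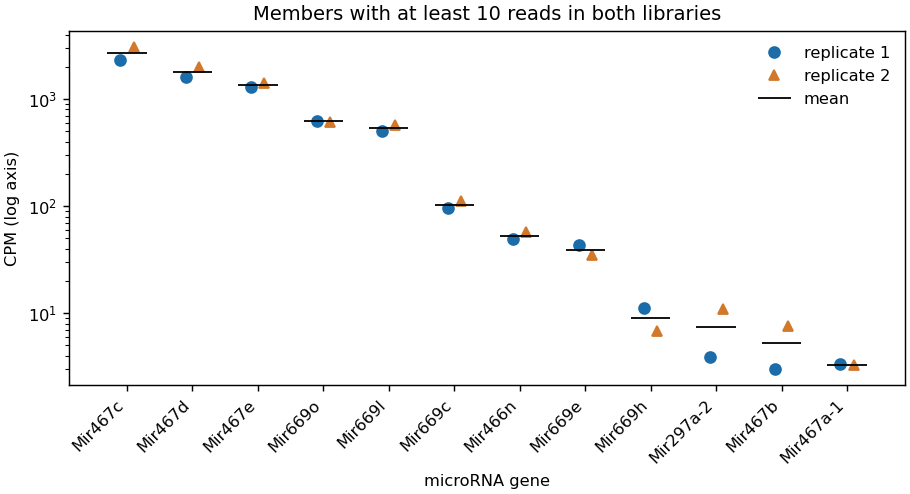
CPM, on a log axis, of the 12 members with at least 10 reads in both libraries, with a point for each replicate and a line for the mean. Mir467c leads at 2319 and 3041 CPM, the first 8 genes keep 1 order in both libraries, and the replicates lie farthest apart at Mir297a-2, with 13 and 40 reads.

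A further 24 members had reads but fewer than 10 in at least 1 library, with 62 reads in replicate 1 and 48 in replicate 2 over all of them. Of these, 12 had reads in both libraries and 12 in 1 library only. The most reads that a member had when seen in 1 library only was 3. Among those seen in both, Mir669f had 8 and 5 reads, Mir466l 6 and 6, Mir466b-3 5 and 7, Mir297b 3 and 8, and Gm22925 9 and 1.

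The assigned reads of the 107 members were not spread evenly along the array. Counted from the start of the first member, the longest run of adjacent counted genes with no read in either library lay at 17.3 to 38.1 kb. It holds 45 genes, from Gm24761 to Mir467a-10 (chr2:10482612-10503355). For 35 of these, every 20-base stretch of the precursor also occurs at another annotated microRNA gene. The same holds for 5 of the 30 members before the run and 2 of the 32 after it. A 0 gives no level for such a gene. The 30 members before this run included 15 with reads and held 43.7% and 46.7% of the cluster's reads. The 32 members after it included 21 with reads and held 56.3% and 53.3%. Each flank held 6 of the 12 members with at least 10 reads in both libraries.

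**Figure D3:**
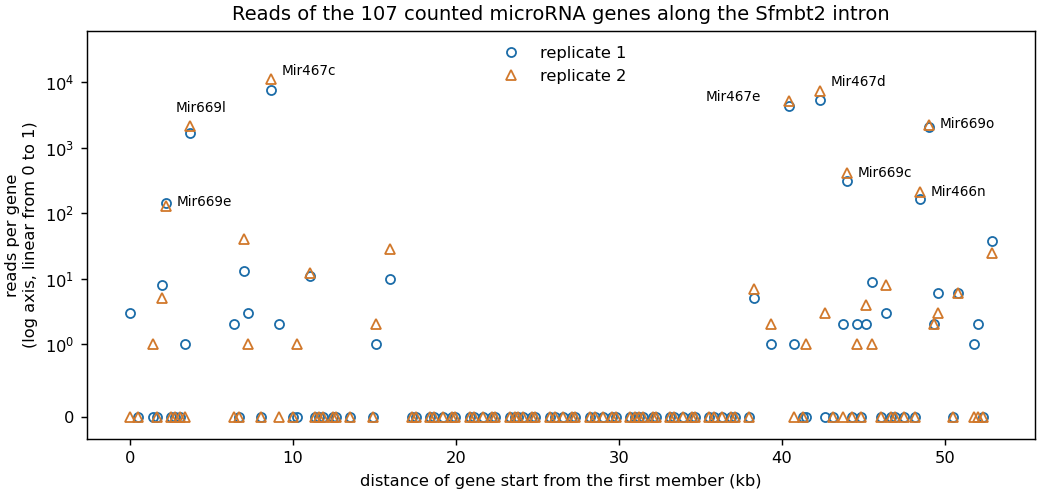
Reads of each of the 107 counted members in replicate 1 (circles) and replicate 2 (triangles) against the distance of the gene's start from the first member, in kb. The vertical axis is logarithmic above 1 and linear from 0 to 1. The genes with the most reads lie in both flanks, and the 45 genes between 17.3 and 38.1 kb are at 0 in both libraries. Of these 45, 35 share every 20-base stretch with another annotated microRNA gene.

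Direct neighbours in the intron differed by large amounts in assigned reads, which leave out reads that map to several places. Mir467c, with 7648 and 11197 reads, is followed 405 bases on by Mir669a-3, with 2 and 0. Mir467e, with 4274 and 5220 reads, lies 198 bases before Mir466p, with 1 and 0. Mir467d, with 5330 and 7296 reads, lies 203 bases before Mir466, with 0 and 3. In Mir467c and Mir669a-3, 60.3% and 28.9% of 20-base precursor stretches occur at no other annotated microRNA gene. The values are 57.4% and 37.1% for Mir467e and Mir466p, and 37.9% and 37.0% for Mir467d and Mir466. The part of shared sequence in these differences was not tested. Other neighbours both carried reads, such as Mir466n and Mir669o, 465 bases apart, and Mir669f and Mir669e, 145 bases apart. Genes between a pair that are not among the counted ones were passed over here. Mir466b-1, which lies between Mir467c and Mir669a-3, is one of these.

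The members' counts were set beside the sequence that their genes share, since the table keeps multiply mapped reads in a separate row. For each precursor, the share of 20-base stretches found at no other M21 microRNA gene on either strand was computed, here called its own stretches. The comparison covers 2202 annotated microRNA genes and not the rest of the genome. The median member shared a stretch with 19 other microRNA genes, against 0 for the median counted gene outside the cluster. Of the 107 members, 38 had a precursor equal over its whole length to that of another gene in the interval, and none of these 38 had a read. A read from within such a precursor also matches the other gene, and multiply mapped reads are kept out of the gene rows. The count of 0 for these 38 members can thus arise from the counting rule at any level, and it gives no level for them.

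Members without own stretches were nearly all at 0. This group has 42 members, and Mir467a-1 was the one with reads, 11 and 12 of them. Its whole 73-base precursor is shared with 7 other annotated genes, and how these reads came to be assigned to 1 gene was not tested. Among the 63 members with some own stretches, 33 had reads, 21701 and 28952 in sum. The remaining 2 members, Mir466g and Gm22239, shared no stretch with another gene and had 2 and 2 and 2 and 4 reads. Outside the cluster, 4.05% of the 222 counted genes without own stretches had reads, as did 21.3% of the 625 with some and 62.4% of the 940 that shared none. The central stretch of 45 genes at 0 was delimited by these same counts. In it 35 genes had no own stretch, against 5 of 30 before it and 2 of 32 after it. The part of shared sequence in these zeros was not tested, and a 0 here gives no level for a gene without own stretches.

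Members with much sequence of their own included genes with reads and genes with none. Own stretches are a percent of the whole precursor, and mature arms were not separated. A high value thus does not show that the part giving rise to reads is a gene's own. The 12 members with at least 10 reads in both libraries had a median of 51.3% own stretches, from 0 to 95%. The 24 with fewer reads had a median of 41.2% (22.8 to 100%), and the 71 at 0 had a median of 0 (0 to 94.8%). Of the 14 members with at least 75% own stretches, 9 had reads, but Mir669c and Mir669e alone reached 10 in both libraries. The other 5, Mir669b, Gm23578, Gm26073, Gm24342 and Gm23542, were at 0 in both. These genes, like the others named in this comparison of shared sequence, were picked after their values were seen.

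**Figure D4:**
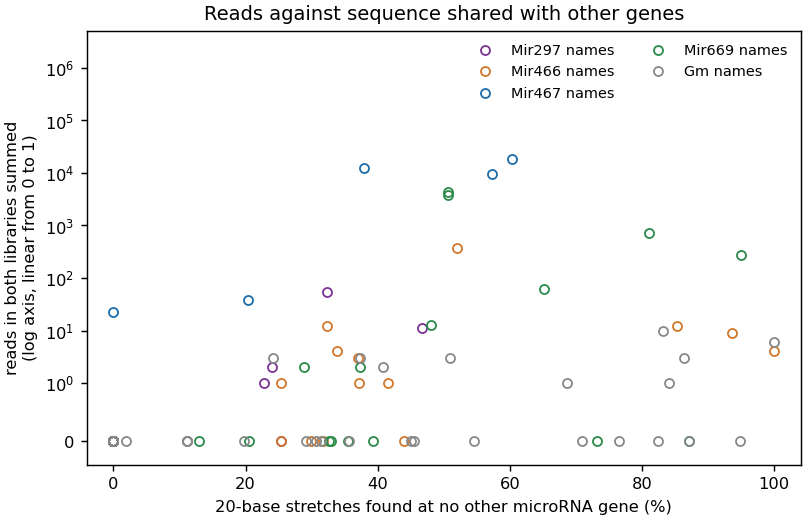
Reads of each member, summed over both libraries (log axis above 1, linear from 0 to 1), against the percent of its 20-base stretches found at no other annotated microRNA gene, with name groups in colours. Of the 42 members at 0% only Mir467a-1 carries reads, and the highest points, Mir467c, Mir467d and Mir467e, lie at 60.3%, 37.9% and 57.4%.

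The Mir467 genes with the most reads are themselves close relatives. The longest stretch shared by Mir467c and Mir467e was 48 bases, and that shared by Mir467d with either of them was 34. Mir467d shared 60 bases with 9 Mir467a copies and Gm25022. Of the 20-base stretches in Mir467c, Mir467d and Mir467e, 60.3%, 37.9% and 57.4% were their own. The 10 Mir467a copies had none, and 9 of them had no read. How many reads from the shared stretches stand in the row of multiply mapped reads is unknown, so the levels of these genes are uncertain. In Mir669l the longest stretch shared with another gene was 57 bases (with Mir669d, at 0 reads) and in Mir669o 38 (with 12 genes). In Mir669e, with 95% own stretches, it was 24 bases.

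The member precursors were rich in A and T. The median GC content of the members was 38.3% (quartiles 35.1 and 40.5%), against 52.0% (45.2 and 58.5%) over the 1787 other counted genes with a sequence. The dinucleotides TG and GT made up a median of 23.4% of steps in the members and 15.3% in the others. GC content was alike in the 12 members with at least 10 reads in both libraries (median 39.9%) and in the 71 at 0 (38.6%). The predicted folding energy per 100 bases had a median of -40.6 kcal/mol in these 12, -36.0 in the 71 at 0, -37.3 over all members and -38.0 over the other genes. The ranges of the 12 (-57.3 to -26.3) and the 71 (-48.4 to -20.9) overlapped over most of their length. Of the 71 at 0, 41 had no own stretch, and a 0 gives no level for these. The values of the 12 and the 71 thus do not compare expressed with silent genes. Precursors of equal sequence entered the medians once per gene.

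Between the pools, the better counted members stayed within 1.5-fold. With 1 library per pool this compares libraries and has no test. Of the 8 members of mean CPM 10 or more, none differed by more than 1.5-fold between the replicates. Of the 338 counted genes at that level, 17.2% did. With 8 members, a count of 0 cannot be told apart from that share. The log2 ratios of the 8 members ran from -0.30 for Mir669e to 0.40 for Mir467c, with a median of 0.21. The median of all 338 genes was -0.03 (quartiles -0.28 and 0.23). A log2 ratio above 0 was found for 6 of the 8 members and for 47.3% of all genes at that level. Mir669o, at -0.03, changed sign when DESeq2 size factors were used, which made it 7 of 8. The 8 members lie in the same intron and some share long stretches, so they are not independent values. Their number above 0 was not tested against the share of all genes. The counting interval of the ratio excluded 1 for 4 of the 8 members, Mir467c, Mir467d, Mir467e and Mir669l, which are 4 of the 5 most deeply counted. The filter left out 4 members with at least 10 reads in both libraries. Of these, Mir297a-2 (2.70, 1.45 to 5.63), Mir467b (2.45, 1.19 to 5.81) and Mir669h (0.612, 0.350 to 1.04) lay past 1.5-fold. Mir467a-1 (0.981, 0.396 to 2.45) did not.

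**Figure D5:**
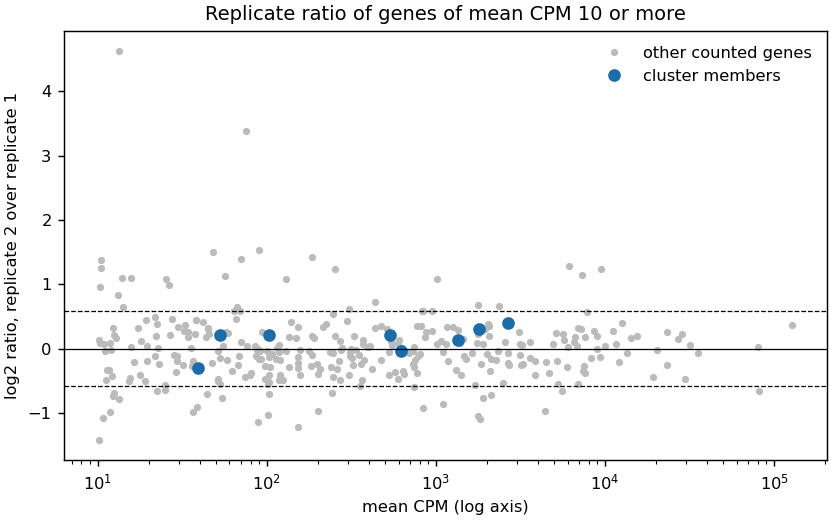
Log2 ratio of replicate 2 over replicate 1 (TMM-scaled) against mean CPM (log axis) for the 338 counted genes of mean CPM 10 or more. The 8 cluster members (large points) lie between -0.30 and 0.40, inside the dashed lines that mark 1.5-fold in either direction.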

How the data were processed

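Small RNA was sequenced from 2 pools of midbrain. The authors deposited raw read counts per gene, which were aligned to mm10 and counted on GENCODE M4 per the file headers of the deposited descriptions. The aligner is not given in the sources used here. The 4 rows that name no gene were left out of library sizes. Of 3 count columns the first was used, which equals the sum of the other columns in each gene row. Identifiers were matched without version to GENCODE M21 (GRCm38, the build of mm10), where 1894 of 1973 matched. Members, lists and the naming rule were chosen with earlier results of these data known. Named genes are the members with at least 10 reads in both libraries. Other genes with values (members with fewer reads, and Mir92b and the Mir9 and Mir124a copies) were picked after these were seen.

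CPM, means and SDs were computed from the counts. Ratios used 0.5 added reads and TMM scaling (edgeR 4.0.16, R 4.3.3), with exact binomial (Clopper-Pearson) 95% intervals, and were checked on simulated counts. No p-value was computed, since the series has 1 group. Folding energies came from RNAfold 2.7.2. Other software was matplotlib 3.10.9, pandas 2.3.3, numpy 2.4.6 and scipy 1.17.1 under Python 3.11.15. Alternatives were DESeq2 1.42.0 size factors, total counts, other filters, the second count column, thinning of replicate 2, leaving out each replicate, and stretches of 18 and 22 bases. Mature arms were not separated.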

Additional observations from a re-analysis of the deposited data

How the results depend on the processing

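The share of the cluster was 0.293% with all reads of the library as denominator, 0.455% without Mir467c (an alternative chosen after seeing the data) and 0.000142% over the 2 members that share no 20-base stretch with another gene. Leaving out a replicate gave shares of 0.658 to 0.787%, 12 detected members each time, and 79.4 to 81.9% for the 3 highest members. At least 1 read in both libraries gave 24 members in place of 12. With replicate 2 thinned to the depth of replicate 1 there were 11, as Mir467a-1 fell to 9 reads. Members past 1.5-fold numbered 0 with the filter at a mean CPM of 10, and 7 of 18 (38.9%, all genes 28.7%) at a mean CPM of 1. With 1 read in sum there were 24 of 36 (66.7%, all genes 46.8%). These 24 include the 12 members with reads in 1 library only, which must pass 1.5-fold with 0.5 added reads. The median log2 ratio of members was 0.25 with DESeq2 size factors and 0.17 at a mean CPM of 1. The cause of these differences was not tested. For the 12 named members, all 48 alternative ratios lay within the counting interval. Stretches of 18 and 22 bases also left 1 member with reads among those without own stretches. No paired analysis was possible because the series has 1 group.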
